A study of Homo sapiens with 4 samples.

Results

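The genes described are 49 regulators of pre-mRNA splicing and mRNA fate. They are the hnRNP genes, the SR protein genes and a further set of RNA-binding regulators. The list was set by gene symbol, with earlier results of these data known. Of the 49, 44 had a probe set that named them alone, out of 18417 genes named on the array. The other 5 (HNRNPA3, HNRNPC, HNRNPH2, HNRNPUL2 and RBMX) have only probe sets that also name other genes and are given no value. Each measured gene was read through the probe set with the highest mean over the 4 arrays. A level filter was set at a log2 level of 7.23, the median over all gene values, and 42 of the 44 reached it in 1 array or more, while QKI and MBNL2 stayed under it in all 4. The comparisons below count all 44.

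The study used human prostate cancer cells. LNCaP is an androgen-responsive line, and LTAD was derived from it by long growth without androgen, as a model of castration-resistant disease. There was 1 array for each of 4 groups, with no replicate. LNCaP cells were held for 24 h in hormone-free medium, made without phenol red and with 2.5% serum stripped by charcoal and dextran. Untransfected LTAD cells, LTAD cells transfected with a control siRNA (siControl) and LTAD cells transfected with an siRNA against PSF (siPSF) grew in such medium with 10% stripped serum. PSF is the RNA-binding protein encoded by SFPQ. The sources used here do not state whether LTAD is 1 clone, the siRNA sequences or the time from transfection to harvest.

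A first group of regulators, the hnRNP proteins, coats nascent transcripts and often blocks the use of nearby splice sites. SR proteins carry a domain rich in arginine and serine, bind exonic enhancers and recruit the splicing machinery. Many of these proteins bind their own transcripts or those of a paralogue and set their level through exons that lead to decay, so the families are known for cross-regulation. The MBNL, CELF, QKI, TIA and PTB proteins add positional and tissue-dependent control of single exons.

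Values are log2 probe set levels after quantile normalization of the 4 arrays, and a difference is the log2 level in one array minus that in another. Levels are compared between arrays for 1 gene, never between genes. With 1 array a group, no error, p-value or test can be given, and a gene is counted as apart when the arrays differ by 1.5-fold or more (a log2 difference of 0.58). The share of all 10117 genes that passed the level filter and are apart in the same way is printed beside the members' counts in each comparison. On the deposited scale the 2 transfected arrays had medians over all probe sets of 5.98 (siControl) and 6.04 (siPSF), while LNCaP had 6.91 and untransfected LTAD 7.20. Against untransfected LTAD, siControl therefore had a median difference over the genes kept of -0.87 on the deposited values, 0.34 after centring each array on its median and 0.06 after quantile normalization, and a gene's own difference moves with that choice.

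SFPQ, the siRNA target, read 11.23 in siControl and 9.87 in siPSF, which is 2.58-fold lower. It read 10.83 in LNCaP and 10.82 in untransfected LTAD. NONO, a partner of PSF in the DBHS family, differed by 0.05 between siPSF and siControl, and PSPC1, another DBHS protein, was 2.20-fold higher with siPSF. All 8 measured luminal prostate markers reached the filter level in LNCaP, untransfected LTAD and siControl, and 7 of the 8 did so in siPSF. KLK3, the 1 under it there, read 12.89 in LNCaP, 11.06 in untransfected LTAD, 7.47 in siControl and 7.11 in siPSF. In siControl 4 of the 8 were at least 1.5-fold lower than in untransfected LTAD (11.7% of kept genes) and 1 higher (16.7%). Of other cell types, 0 of 5 endothelial markers reached the filter level in any array. Between 0 and 2 of 5 basal, 1 or 2 of 8 stromal and 1 of 6 immune markers (CD68) reached it. The arrays read bulk RNA, so a lower level in every cell and a loss from some of the cells cannot be told apart.

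Among the splicing regulators, the hnRNP genes stood farthest apart between the LTAD arrays. HNRNPA0, HNRNPH3, HNRNPF and HNRNPM were at least 2-fold higher in siControl than in untransfected LTAD. The 250 bases before the RefSeq transcription start of these 4 genes are shown because they are the members that stood farthest apart together. They are given 5′ to 3′ on the strand of the gene, build GRCh38.p14, at chr5:137754364-137754613 (minus) for HNRNPA0, chr10:68331443-68331692 (plus) for HNRNPH3, chr10:43408858-43409107 (minus) for HNRNPF and chr19:8444725-8444974 (plus) for HNRNPM. Capitals mark matches, on either strand, to any of 6 motifs. These are the CCAAT box (CCAAT), the GC box (GGGCGG), an ETS core (CCGGAAG), the TATA box (TATAAA), the E box (CACGTG) and a YY1 core (AAGATGG).
HNRNPA0: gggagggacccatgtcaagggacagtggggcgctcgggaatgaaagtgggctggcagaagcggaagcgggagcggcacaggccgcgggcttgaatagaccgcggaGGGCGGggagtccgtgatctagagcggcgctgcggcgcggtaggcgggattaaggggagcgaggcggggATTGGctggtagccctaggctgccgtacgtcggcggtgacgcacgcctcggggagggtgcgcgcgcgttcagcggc
HNRNPH3: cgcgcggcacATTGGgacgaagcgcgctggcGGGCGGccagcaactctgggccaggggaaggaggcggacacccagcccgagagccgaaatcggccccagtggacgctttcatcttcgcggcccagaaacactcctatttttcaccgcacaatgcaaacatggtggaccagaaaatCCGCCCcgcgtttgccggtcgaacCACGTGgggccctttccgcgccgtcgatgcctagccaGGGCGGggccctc
HNRNPF: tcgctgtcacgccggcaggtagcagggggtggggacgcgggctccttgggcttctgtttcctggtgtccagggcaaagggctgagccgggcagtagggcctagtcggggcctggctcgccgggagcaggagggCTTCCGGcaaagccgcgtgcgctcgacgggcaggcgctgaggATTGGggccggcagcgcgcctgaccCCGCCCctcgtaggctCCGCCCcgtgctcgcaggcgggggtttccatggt
HNRNPM: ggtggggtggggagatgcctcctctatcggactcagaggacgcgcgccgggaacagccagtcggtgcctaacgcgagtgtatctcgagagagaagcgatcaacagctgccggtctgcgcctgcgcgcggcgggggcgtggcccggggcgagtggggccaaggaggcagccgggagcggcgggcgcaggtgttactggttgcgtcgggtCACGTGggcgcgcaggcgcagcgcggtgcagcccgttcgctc

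No motif match in these 4 windows overlapped another. HNRNPA0 held 1 CCAAT box and 1 GC box, HNRNPH3 held 1 CCAAT box, 3 GC boxes and 1 E box, and HNRNPF held 1 CCAAT box, 2 GC boxes and 1 ETS core. HNRNPM held 1 E box only. Among the 37 members with a promoter in the RefSeq table, 13 (35.1%) held a CCAAT box, against 36.1% of 8254 kept genes, and 24 (64.9%) held a GC box, against 69.5%. The ETS core was in 16.2% of the members and 17.3% of the kept genes, the E box in 13.5% and 9.46%, the TATA box in 10.8% and 5.06% and the YY1 core in 2.70% and 3.71%. Over all 27305 promoters in the table the shares were 33.0% for the CCAAT box, 42.3% for the GC box, 8.82% for the ETS core, 6.49% for the E box, 11.1% for the TATA box and 3.77% for the YY1 core. Median GC content was 65.6% in both the members and the kept genes. A match is a string of letters in a window and does not show that a factor binds there.

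HNRNPA0, a small intronless hnRNP gene of the A/B family, read 9.67 in LNCaP, 9.32 in untransfected LTAD, 10.60 in siControl and 10.45 in siPSF. It was 2.43-fold higher in siControl than in untransfected LTAD and 1.90-fold higher than in LNCaP. Both transfected arrays lay above both untransfected ones. HNRNPH3, which binds G-rich tracts, showed the same order, with 9.19 in LNCaP, 8.92 in untransfected LTAD, 10.12 in siControl and 10.35 in siPSF. It was 2.30-fold higher in siControl than in untransfected LTAD, and its range over the 4 arrays, 1.43, was the widest of the 44 genes.

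HNRNPF, also a binder of G-rich tracts, read 10.57 in LNCaP, 10.11 in untransfected LTAD and 11.12 in both transfected arrays, 2.02-fold apart between siControl and untransfected LTAD. HNRNPM, which competes with ESRP proteins on epithelial exons, read 10.34 in LNCaP, 9.72 in untransfected LTAD, 10.72 in siControl and 10.70 in siPSF. It was 2.01-fold higher in siControl than in untransfected LTAD, and 1.54-fold lower in untransfected LTAD than in LNCaP. For both genes untransfected LTAD was the lowest array and the transfected arrays were the highest. On the deposited values untransfected LTAD was still the lowest, but LNCaP was the highest for both. The difference between siControl and untransfected LTAD was there 0.21 for HNRNPF and 0.17 for HNRNPM, beside -0.87 over all kept genes.

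HNRNPUL1, a protein related to hnRNP U, read 10.35, 9.95, 10.93 and 10.97 in LNCaP, untransfected LTAD, siControl and siPSF, and was 1.98-fold higher in siControl than in untransfected LTAD. HNRNPU, a scaffold-attachment protein of the nucleus, read 10.45, 10.04, 10.90 and 10.77 in the same order, a 1.81-fold difference between siControl and untransfected LTAD. TRA2B, an SR-like activator, was the remaining member at least 1.5-fold higher in siControl than in untransfected LTAD. It read 10.71, 10.48, 11.10 and 10.74. Unlike the hnRNP genes just described, TRA2B was high in siControl alone. On the deposited values the differences between siControl and untransfected LTAD were 0.16 (HNRNPUL1), 0.04 (HNRNPU) and -0.17 (TRA2B), beside -0.87 over all kept genes.

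Counted over all members, 7 of 44 were at least 1.5-fold higher in siControl than in untransfected LTAD (15.9%), against 16.7% of kept genes, a share near the background. Just 1 was at least 1.5-fold lower (2.27%), against 11.7%. At 2-fold 4 were higher (9.09%) and 0 lower, against 6.34% and 4.36%. The whole set had a median difference of 0.32, beside 0.06 for all kept genes. Of the 7 higher members, 6 were among the 16 hnRNP genes, SYNCRIP (hnRNP Q) included.

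The hnRNP genes had a median difference of 0.49 between siControl and untransfected LTAD, with 15 of 16 above 0 and HNRNPA1 (-0.19) below. The 11 SR protein genes had a median of -0.11, with 4 above 0 and 7 below. Of all kept genes, 55.3% were above 0. On the deposited values the hnRNP median turned to -0.35 and the SR median to -1.01, and on centred arrays they were 0.86 and 0.21, so both directions follow the scale. Against the median of all kept genes, 15 of 16 hnRNP genes lay above it, and of the 11 SR genes 4 lay above it and 7 below, on both the quantile-normalized and the deposited values. Centring moves every gene of an array alike, so a place against that median is the same on centred and on deposited values. The hnRNP median minus the SR median was 0.61 on the quantile-normalized and 0.65 on the deposited values. The grouping into hnRNP and SR genes was chosen after values were seen.

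**Figure D1:**
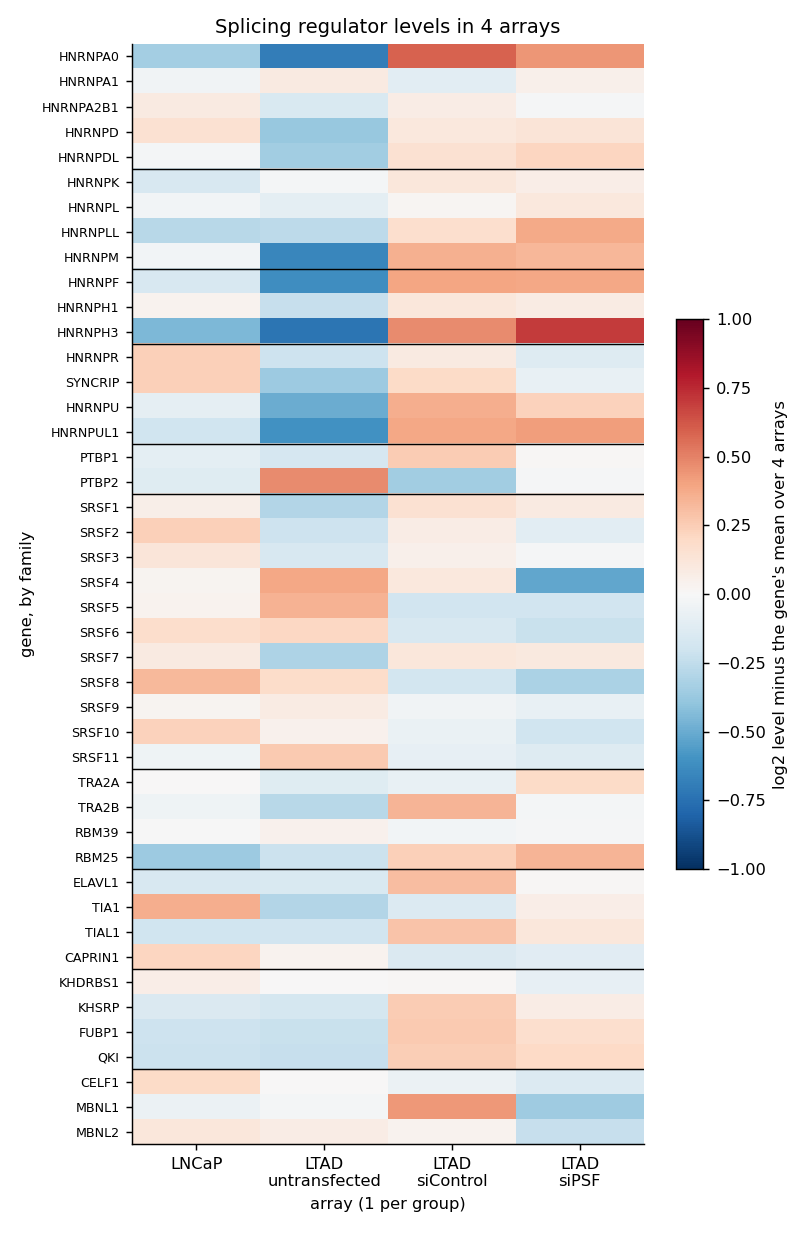
Heat map of the 44 measured splicing regulators (rows, grouped by family, separated by black lines) in the 4 arrays (columns), coloured by the log2 level minus the gene's own mean over the arrays, red for higher and blue for lower. HNRNPA0, HNRNPM, HNRNPF, HNRNPH3, HNRNPU and HNRNPUL1 are lowest in untransfected LTAD and higher in both transfected arrays, while SRSF4 is lowest in siPSF.

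Other hnRNP genes moved less. HNRNPD, an AU-rich element binder also called AUF1, read 11.93, 11.40, 11.88 and 11.91 in LNCaP, untransfected LTAD, siControl and siPSF, low in untransfected LTAD alone. Its relative HNRNPDL read 9.32, 8.99, 9.49 and 9.56. HNRNPLL, a regulator of CD45 splicing in lymphocytes, read 7.59, 7.61, 8.04 and 8.25, so that the 2 untransfected arrays were close and both transfected arrays were higher. SYNCRIP read 10.29, 9.68, 10.23 and 9.97 and HNRNPR, its paralogue, 10.65, 10.20, 10.50 and 10.28. Both were highest in LNCaP and lowest in untransfected LTAD.

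HNRNPK, a KH-domain protein, ranged from 11.94 in LNCaP to 12.21 in siControl, and HNRNPL, which binds CA repeats, from 11.52 in untransfected LTAD to 11.73 in siPSF. HNRNPA2B1 ranged from 10.84 to 11.08 and HNRNPH1 from 10.29 to 10.63, each lowest in untransfected LTAD. HNRNPA1 read 7.26, 7.39, 7.19 and 7.35, near the filter level, through 1 probe set.

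In the SR family the untransfected LTAD array was not low throughout. SRSF5, an SR protein gene, read 10.24 in LNCaP, 10.55 in untransfected LTAD, 10.01 in siControl and 10.02 in siPSF. SRSF11 read 11.88, 12.18, 11.84 and 11.80 in that order, and SRSF6 10.96, 10.99, 10.62 and 10.56. SRSF8 read 11.52, 11.38, 11.01 and 10.88, and its difference of -0.51 between siControl and LNCaP was the lowest of all members there. In these 4 genes both transfected arrays lay below both untransfected ones, an order that none of them kept on centred arrays.

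SRSF1, SRSF2, SRSF3 and SRSF7 followed the hnRNP order in part, with untransfected LTAD lowest. SRSF1, the SR protein known as ASF/SF2, read 11.39, 11.04, 11.48 and 11.42 in LNCaP, untransfected LTAD, siControl and siPSF. SRSF2 (SC35) read 10.42, 9.98, 10.26 and 10.07, SRSF3 10.47, 10.19, 10.40 and 10.34, and SRSF7 9.72, 9.32, 9.75 and 9.73. Each of these differences was under 1.5-fold. SRSF9 was nearly level, from 9.79 to 9.95, and SRSF10 ran from 8.38 in siPSF to 8.80 in LNCaP, with its second probe set from 8.18 to 8.77.

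The 2 transfected arrays lay above both untransfected ones in 21 of 44 members (47.7%), against 35.2% of kept genes, and below both in 10 (22.7%), against 26.2%. Of the 10, 6 were SR genes (SRSF5, SRSF6, SRSF8, SRSF9, SRSF10 and SRSF11), with RBM39, CAPRIN1, CELF1 and MBNL2. Untransfected LTAD was the lowest of the 4 arrays for 24 members (54.5%), against 33.6% of kept genes. LNCaP was lowest for 5 (11.4%, against 26.4%), siControl for 5 (11.4%, against 17.4%) and siPSF for 10 (22.7%, against 22.7%). These orders follow the scale, as do those given for single genes. On the deposited values both transfected arrays lay above both untransfected ones for 2 members, HNRNPA0 and HNRNPH3 (1.88% of kept genes), and below both for 38 (87.8% of kept genes). Untransfected LTAD was there the lowest array for 5 members, HNRNPA0, HNRNPM, HNRNPF, HNRNPH3 and HNRNPUL1 (3.66% of kept genes). On centred arrays both transfected arrays lay above for 29 members (51.1% of kept genes) and below for 1, MBNL2 (14.6% of kept genes). None of the 6 SR genes named lay below both there, and SRSF9, SRSF11 and RBM39 lay above both. Untransfected LTAD was lowest on centred arrays for 33 members (49.6% of kept genes). Transfection, the array and the deposited scale go together between these pairs of arrays and cannot be told apart.

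A list of 22 proliferation genes read lower in untransfected LTAD than in both LNCaP and siControl. Its median difference between siControl and untransfected LTAD was 1.32. All 22 were above 0, against 55.3% of kept genes, and 21 were at least 1.5-fold higher, against 16.7%. Between untransfected LTAD and LNCaP the median was -1.22, with all 22 at least 1.5-fold lower, against 9.05% of kept genes. Between siControl and LNCaP it was 0.06, with 13 above 0 and 9 below, where 56.4% of kept genes were above 0. The medians of 1.32 and -1.22 both use the 1 untransfected LTAD array and are not independent. This list was read on the quantile-normalized values only. The part of cell proliferation in the hnRNP differences was not tested.

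**Figure D2:**
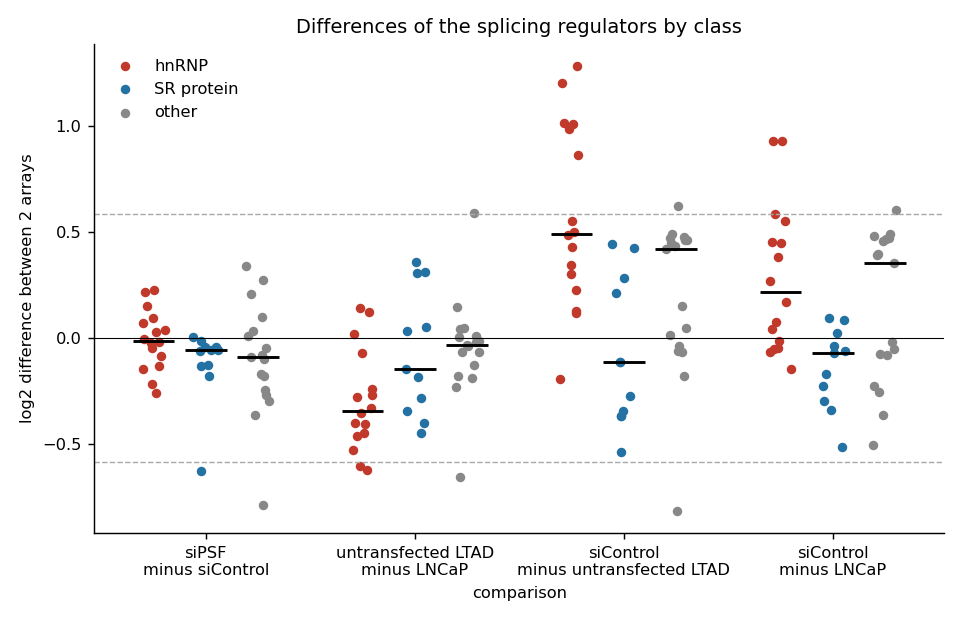
Log2 differences (y axis) of the 16 hnRNP genes (red), the 11 SR protein genes (blue) and the 17 other regulators (grey) in the 4 comparisons (x axis), each point a gene, with the median as a black bar and 1.5-fold as dashed lines. In siControl minus untransfected LTAD the hnRNP median is 0.49 and the SR median -0.11, and in siPSF minus siControl nearly all points lie within 1.5-fold.

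The comparison of untransfected LTAD with LNCaP asks how the regulators differ between the androgen-deprived subline and its parent. Most were slightly lower in LTAD, with TIA1, HNRNPM and SYNCRIP lower by at least 1.5-fold and PTBP2 higher. The count of 3 lower (6.82%) stood against 9.05% of kept genes, and that of 1 higher (2.27%) against 6.63%. At 2-fold there was no member in either direction, where 2.2% of kept genes were higher and 3.43% lower. The members' median was -0.14, beside 0.00 over all kept genes, and 30 of 44 were below 0 (68.2%), against 49.5%. The median was -0.34 for hnRNP genes and -0.14 for SR genes. The untransfected LTAD array is also used in the comparison with siControl, so the 2 comparisons are not independent.

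TIA1, a U-rich binder that promotes weak 5′ splice sites and forms stress granules, read 10.46 in LNCaP, 9.80 in untransfected LTAD, 9.95 in siControl and 10.16 in siPSF. It was 1.57-fold lower in untransfected LTAD than in LNCaP, and all 3 LTAD arrays were lower than LNCaP. Its paralogue TIAL1 read 8.53 in both LNCaP and untransfected LTAD, 9.01 in siControl and 8.84 in siPSF. TIA1 was thus highest in LNCaP, while TIAL1 was higher in both transfected arrays than in both untransfected ones, an order that TIAL1 did not keep on the deposited values.

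PTBP2, the neuronal polypyrimidine tract-binding protein, read 8.93 in LNCaP, 9.52 in untransfected LTAD, 8.70 in siControl and 9.04 in siPSF. It was higher in untransfected LTAD than in LNCaP by a log2 difference of 0.59, just past 1.5-fold, and 1.76-fold lower in siControl than in untransfected LTAD. PTBP1, its widely expressed paralogue, which is known to repress PTBP2 through exon skipping, read 11.68, 11.61, 12.03 and 11.78. On the quantile-normalized values PTBP1 was highest and PTBP2 lowest in siControl, and in untransfected LTAD the order was the reverse. On the deposited values both genes were highest in untransfected LTAD, at 11.98 and 10.00.

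Set against LNCaP, siControl LTAD gave another set of genes. HNRNPA0, HNRNPH3 and RBM25 were at least 1.5-fold higher, 3 of 44 (6.82%), against 10.3% of kept genes, and 0 were lower, against 8.27%. No member was 2-fold apart, where 2.68% of kept genes were higher and 2.95% lower. RBM25, an RNA-binding protein that acts on BCL2L1 splicing, read 9.62 in LNCaP, 9.77 in untransfected LTAD, 10.22 in siControl and 10.32 in siPSF. The members' median was 0.03, beside 0.06 over all kept genes. HNRNPM, HNRNPF, HNRNPA0 and HNRNPH3 were lower than LNCaP in untransfected LTAD and higher in siControl, so which LTAD array is used sets their direction. This comparison shares the LNCaP array with the previous one and the siControl array with the next. Cell line, serum, time in hormone-free medium and transfection cannot be told apart in it.

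Knockdown of PSF was set against siControl to ask which splicing regulators differ when PSF is reduced. MBNL1 and SRSF4 were at least 1.5-fold lower with siPSF, and no member was at least 1.5-fold higher. The 2 lower members (4.55%) stand against 3.26% of kept genes, and the 0 higher against 0.771%. At 2-fold 0 members were apart in either direction, where 0.722% of kept genes were lower and 0.089% higher. The members' median was -0.05, beside -0.02 over all kept genes, and 30 of 44 were below 0 (68.2%), against 53.1%.

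MBNL1, a muscleblind protein that binds YGCY motifs and drives developmental splicing switches, read 11.01 in siControl and 10.22 in siPSF, 1.73-fold lower. It read 10.52 in LNCaP and 10.56 in untransfected LTAD. The siControl array was thus the highest, and siPSF lay under LNCaP by 0.30 and under untransfected LTAD by 0.34. With untransfected LTAD as the control, MBNL1 was no longer 1.5-fold apart. MBNL2, its paralogue, differed by -0.27 at levels between 4.92 and 5.27, under the filter level, and MBNL3, a further paralogue outside the 49, read 8.69 in siControl and 7.73 in siPSF (-0.96).

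SRSF4, the SR protein also known as SRp75, read 9.25 in siControl and 8.63 in siPSF, 1.55-fold lower. It read 9.17 in LNCaP and 9.53 in untransfected LTAD, so siPSF was the lowest of the 4 arrays, and against untransfected LTAD it was 1.87-fold lower. SRSF6, a close relative, differed by -0.06 between siPSF and siControl. In the SR family 10 of 11 genes were below 0 with siPSF, most by little, with a median of -0.06 and SRSF5 above at 0.01, where 53.1% of kept genes were below 0. After SRSF4 came SRSF2 at -0.18, then SRSF10 and SRSF8, both at -0.13. On the deposited and the centred scale all 11 lay below 0, where 55.8% and 66.7% of kept genes did and the medians over kept genes were -0.03 and -0.09.

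Against untransfected LTAD the siPSF array gave 7 members at least 1.5-fold higher (15.9%, against 15.6% of kept genes) and 1, SRSF4, lower (2.27%, against 13% of kept genes). HNRNPH3 was highest there at 2.69-fold. The 7 were HNRNPA0, HNRNPH3, HNRNPF, HNRNPM, HNRNPU, HNRNPUL1 and HNRNPLL. Between siPSF and siControl the differences of these 7 ran from -0.15 (HNRNPA0) to 0.23 (HNRNPH3).

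The 2 Tra2 genes, activators that bind GAA-rich enhancers, differed in direction with siPSF. TRA2A read 11.29 in siControl and 11.56 in siPSF, and TRA2B 11.10 and 10.74, differences of 0.27 and -0.36. Both stay under 1.5-fold. A second probe set of TRA2A gave 0.29 for the same comparison, but for siControl against untransfected LTAD the 2 probe sets gave 0.05 and -0.94. The PTB genes also parted, with PTBP1 at -0.25 and PTBP2 at 0.34, the highest member in this comparison.

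**Figure D3:**
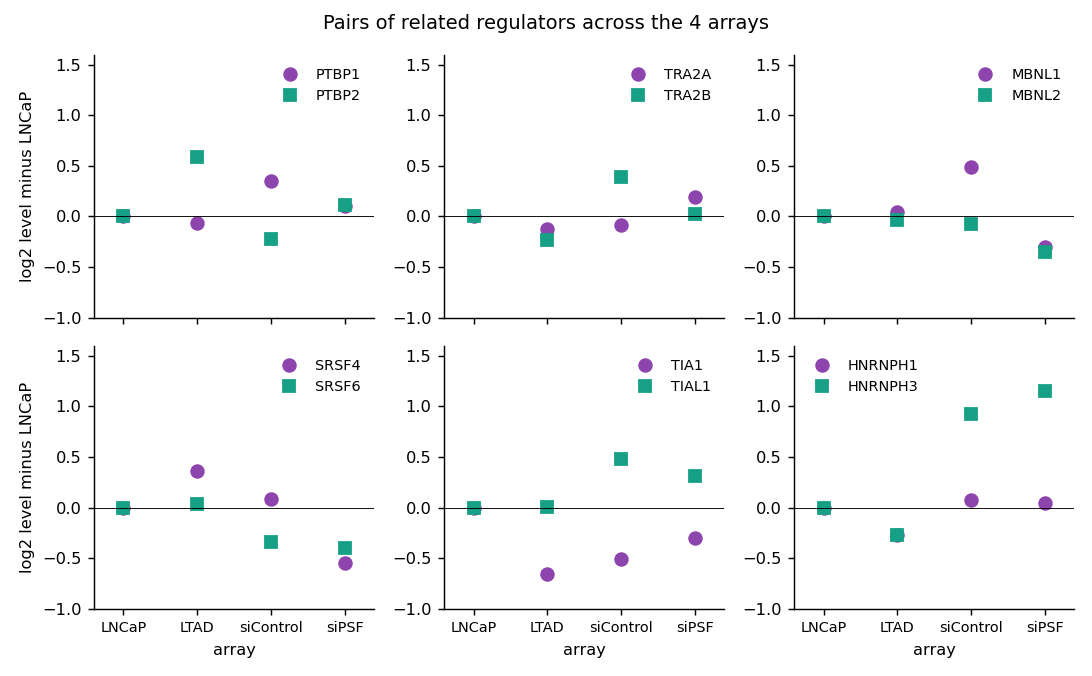
Log2 levels relative to LNCaP (y axis) of 6 pairs of related regulators in the 4 arrays (x axis), 1 point per gene and array. PTBP1 and PTBP2 lie on opposite sides of LNCaP in siControl (0.35 and -0.23), and HNRNPH3 lies at 0.93 and 1.15 in the 2 transfected arrays while HNRNPH1 stays at 0.07 and 0.05. On the deposited values, not plotted, both PTB genes lie below LNCaP in siControl.

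The hnRNP genes were nearly level between siPSF and siControl, with a median of -0.01. SYNCRIP (-0.26) and HNRNPR (-0.22) were lowest, and HNRNPH3 (0.23) and HNRNPLL (0.21) highest. ELAVL1, the mRNA-stabilizing protein HuR, read 9.23 in LNCaP and in untransfected LTAD, 9.69 in siControl and 9.40 in siPSF, a siPSF difference of -0.30. KHSRP, which promotes decay of AU-rich mRNAs, read 10.49 in siControl and 10.31 in siPSF, and FUBP1, a single-strand DNA and RNA binder, 11.33 and 11.24. KHDRBS1 (Sam68) differed by -0.10, QKI by -0.05 at levels under the filter, and CELF1 by -0.08. CAPRIN1, a stress granule protein, differed by 0.03.

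RBM39, a U2AF-related cofactor, was the most level member, from 11.14 to 11.21 over the 4 arrays, and KHDRBS1 followed, from 9.82 to 9.97. The range over the 4 arrays was under 0.5 for 26 of 44 members (59.1%), against 45.2% of kept genes, with medians of 0.46 and 0.54. These ranges are given on the quantile-normalized values only, and they move with the scale. On the deposited values RBM39 ran from 10.81 in siPSF to 11.61 in untransfected LTAD. Its difference between siControl and untransfected LTAD was -0.79 there and 0.42 on centred arrays.

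MBNL1 is one of the few long genes of the set. The median genomic span was 23.5 kb over the members and 28.8 kb over kept genes, and 4 members span over 100 kb. These are MBNL2 (252 kb), MBNL1 (222 kb), QKI (164 kb) and PTBP2 (102 kb), with siPSF differences of -0.27, -0.79, -0.05 and 0.34. Of the 1722 kept genes over 100 kb, 12.8% were at least 1.5-fold lower with siPSF, with a median of -0.10, against 1.11% of the 2338 genes under 10 kb. SRSF4 spans 34.2 kb, and of the 3191 kept genes between 30 and 100 kb 1.72% were at least 1.5-fold lower. Across the 44 members the difference and the log10 span had a Pearson r of -0.17 and a Spearman rho of -0.01, and without MBNL1 the r was 0.0064. Over 10110 kept genes they were -0.21 and -0.16. Genes share arrays and are not replicates, and these values describe the arrays alone. The part of gene length in the MBNL1 difference was not tested.

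**Figure D4:**
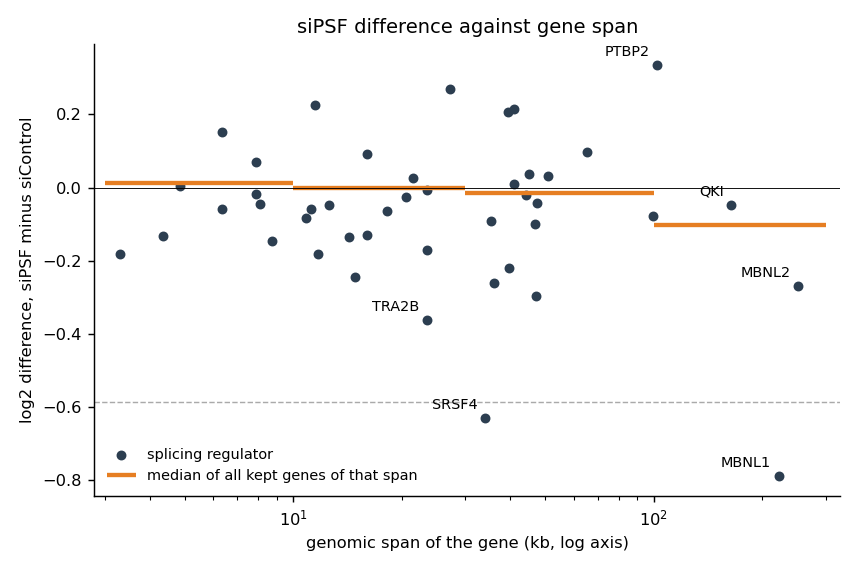
Log2 difference between siPSF and siControl (y axis) against genomic span in kb (log x axis) for the 44 regulators (dark points), with the median of all kept genes in 4 span classes (orange lines) and the 1.5-fold line (dashed). MBNL1 at 222 kb (-0.79) and SRSF4 at 34.2 kb (-0.63) are the 2 points under the dashed line, and PTBP2 at 102 kb (0.34) is the highest.

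Related splicing genes outside the 49 were read from lists of gene names, and only on the quantile-normalized values. As with the members, their differences move with the scale. Their counts at 1.5-fold stand beside shares of kept genes, higher and lower, of 0.771% and 3.26% with siPSF against siControl. The same shares were 6.63% and 9.05% in untransfected LTAD set against LNCaP. In siControl they were 16.7% and 11.7% beside untransfected LTAD, and 10.3% and 8.27% beside LNCaP. Of 9 kept SR protein kinases, which phosphorylate the arginine-serine domain, 0 were 1.5-fold apart with siPSF. SRPK1, a cytoplasmic SR kinase, read 10.48 in LNCaP, 9.85 in untransfected LTAD, 10.49 in siControl and 10.40 in siPSF. It was the 1 kinase at least 1.5-fold lower in untransfected LTAD than in LNCaP and at least 1.5-fold higher in siControl. SRPK2 was the 1 kinase past 1.5-fold between siControl and LNCaP, at 0.59.

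Of 19 kept RS-domain coactivators and SR-related genes, 0 were 1.5-fold apart with siPSF or between untransfected LTAD and LNCaP. Between siControl and untransfected LTAD, 2 were higher. RNPS1, an exon junction complex protein, differed by 0.69 and ACIN1 by 0.62, and ACIN1 alone was past 1.5-fold against LNCaP (0.69).

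Of 13 kept further hnRNP and hnRNP-like genes, 7 were at least 1.5-fold higher in siControl than in untransfected LTAD, against 16.7% of kept genes, and 0 were lower, against 11.7%. Their median difference was 0.70. MSI1, a Musashi translational regulator, read 7.73, 6.96, 8.97 and 9.13 in LNCaP, untransfected LTAD, siControl and siPSF. PTBP3, the third PTB paralogue, read 9.21, 8.71, 9.61 and 9.66, and PCBP2, a poly(C) binder, 11.49, 11.56, 12.34 and 12.37. With siPSF 0 of the 13 were apart from siControl. Between untransfected LTAD and LNCaP, PCBP4 was higher (0.83) and MSI1 lower (-0.77). Between siControl and LNCaP 3 were higher, led by MSI1 (1.23) and PCBP2 (0.85).

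Of 8 kept genes of the FET, TARDBP and matrin list, 3 were higher in siControl than in untransfected LTAD, led by DHX9, an RNA helicase, at 0.88 and the cold-shock domain gene YBX3 at 0.71. None was 1.5-fold apart with siPSF against siControl or in either comparison with LNCaP. Among 11 kept tissue-restricted regulators, 2 were lower with siPSF, MBNL3 and NOVA1. NOVA1, a neuronal regulator, read 8.33 in LNCaP, 9.36 in untransfected LTAD, 8.42 in siControl and 7.59 in siPSF. NOVA1 and MBNL3 were the 2 of this list higher in untransfected LTAD than in LNCaP (1.03 and 0.67), where RBPMS2 was lower (-0.82). NOVA1 was also the 1 lower in siControl than in untransfected LTAD (-0.94), where RBPMS2 (1.72) and KHDRBS3 (1.43) were higher. Against LNCaP 3 were higher in siControl, led by KHDRBS3 (1.34) and RBPMS2 (0.89).

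Of 18 other RBM genes 0 were apart with siPSF. RBM47 (-0.72) and RBM3 (-0.62) were lower in untransfected LTAD than in LNCaP. In siControl against untransfected LTAD, RBM27 (0.71) and RBM3 (0.59) were higher and RBM5 (-0.65) was lower, and against LNCaP RBM6 was higher (0.66) and CIRBP lower (-0.77). The proliferation list had a median of -0.22 between siPSF and siControl, with 20 of 22 genes below 0, against 53.1% of kept genes. Of these 22, 1 was at least 1.5-fold lower, against 3.26% of kept genes. The part of this list in the siPSF differences was not tested.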

How the data were processed

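Expression was read with 4 Affymetrix whole-transcript arrays, 1 per group. The submitters' processing notes name RMA and Affymetrix Expression Console for the deposited log2 probe set levels. No version or setting, and no statement on joint normalization, is in the sources used here. The 4 deposited columns were not on one scale, so the arrays were quantile-normalized (Python 3.11.15, numpy 2.4.6, pandas 2.3.3).

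Of 33297 probe sets, 19460 had 1 symbol, 1754 had several and 12083 were unnamed here. Symbols were updated through Entrez IDs to the RefSeq table of GRCh38.p14, which matched 19429. Where a gene had more than 1 probe set (769 genes), that of highest mean stood for it. Genes under a log2 level of 7.23, the median over gene values, in all arrays were dropped, which left 10117. No detection call was used. Spans and promoters came from RefSeq, GRCh38.p14.

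Differences between 2 arrays were counted past 1.5-fold, with no test, since each group held 1 array, and precision is limited by their number. The naming rule took members at least 1.5-fold apart in any comparison, the highest and lowest in each, up to 4 examples a family, and up to 2 genes past 1.5-fold in each direction from each related list. Other members whose levels are given, the 6 pairs plotted, the motifs and the division into hnRNP and SR genes were chosen after values were seen. The members and gene lists were chosen with earlier results of these data known. Alternatives were the deposited values, median-centred arrays, the mean over probe sets, only members past the level filter, 2-fold, another control array and, added after seeing the data, a middle level band and the order of the arrays on each scale.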

Additional observations from a re-analysis of the deposited data

Results flagged for a closer look

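For 4 of 44 members the 2 LTAD arrays lay on opposite sides of LNCaP and at least 2-fold apart (9.09%), against 8.07% of all kept genes, a share near the background. HNRNPA0 differed by 1.28 between siControl and untransfected LTAD, HNRNPH3 by 1.20, HNRNPF by 1.01 and HNRNPM by 1.01. With 1 array each this difference was not tested. On the deposited values HNRNPF (-0.08) and HNRNPM (-0.27) lay below LNCaP in siControl too, against a median over kept genes of -0.69.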

How the results depend on the processing

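Leaving out a replicate was not possible with 1 array a group. The mean over all probe sets, only members past the level filter and the middle level band (34 members, chosen after seeing the data) changed no count by over 1.5 times and no median by 0.1 or more. With untransfected LTAD as the control, siPSF gave 7 members higher, 1 lower and a median of 0.19. At 2-fold, siPSF minus siControl had 0 lower, untransfected LTAD minus LNCaP 0 higher and 0 lower, siControl minus untransfected LTAD 4 higher and 0 lower, and siControl minus LNCaP 0 higher. On the deposited values, untransfected LTAD minus LNCaP had 0 lower (5.2% of kept genes were lower) and a median of -0.013. There, siControl minus untransfected LTAD had 0 higher (1.74% of kept genes), 19 lower (70.9% of kept genes) and a median of -0.53. In siControl minus LNCaP 0 were higher (1.22% of kept genes) and 23 lower (60.0% of kept genes), with a median of -0.62. TRA2B reversed to -0.17 in siControl minus untransfected LTAD, and RBM25 to -0.083 in siControl minus LNCaP. With centred arrays, untransfected LTAD minus LNCaP had 0 higher (4.36% of kept genes) and a median of -0.30. Centred siControl minus untransfected LTAD had 27 higher (32.5% of kept genes), 0 lower (6.03% of kept genes) and a median of 0.68. Centred siControl minus LNCaP had 15 higher (19.9% of kept genes) and a median of 0.31. These shifts follow the array scale. Taken relative to all kept genes, the members' median in siControl minus untransfected LTAD was 0.26 on quantile-normalized and 0.34 on deposited values, and centring leaves the latter as it is. The low level of QKI and MBNL2, under the filter, limits what their differences show. No paired analysis was possible because each group has 1 array.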
